A study of Ambystoma mexicanum with 198 samples.

Results

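Transcripts of 5 genes of cartilage and joint matrix were followed through forelimb regeneration in the axolotl: *PRG4* (proteoglycan 4, or lubricin), *ACAN* (aggrecan), *OGN* (osteoglycin), *CILP* (cartilage intermediate layer protein) and *ABI3BP* (ABI family member 3 binding protein). The members were chosen by name, as every probe that the array's annotation or the study's table of changed genes pairs with 1 of these symbols. This gave 6 probes of 20035 and 5 genes of 8639 named genes. *ACAN* had 2 probes (axo13259-r_at, called the first probe here, and axo13260-r_at, the second), and the other genes had 1 each: axo05637-f_at for *PRG4*, axo13476-f_at for *OGN*, axo09304-f_at for *CILP* and axo15011-r_at for *ABI3BP*. The study's table, which was drawn up from these same arrays, holds 4 of the 6 probes (not the second *ACAN* probe and not *OGN*). Its text also names *OGN*, from profiles on these arrays. All 6 probes are read here from the same arrays, so no change in them is evidence independent of the study.

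The study asked which genes change, and when, as an amputated limb forms a blastema and regrows. Animals of *Ambystoma mexicanum* from a stock center, less than a year old, were anesthetized in benzocaine, and a forelimb was cut through the middle of the zeugopod, the forearm segment, with a razor blade, without trimming back the skeleton. The labels name no strain, mutation, transgene or drug, and they separate the groups by time after amputation alone. Tissue of the outermost 1 mm of the limb was taken at 20 time points, which were 0, 0.5, 1, 1.5, 2, 3, 4, 5, 7, 9, 10, 12, 14, 16, 18, 20, 22, 24, 26 and 28 days post-amputation (DPA). The study describes the 0 DPA sample as non-amputated. There were 10 arrays at each time point except 16 and 28 DPA, which had 9, for 198 arrays in all. Each sample mixed skin, muscle, skeleton, nerve, fat, connective tissue and, later, blastema. According to the study, regenerated tissue made up more of the later samples, and stump tissue more of the early ones. It adds that tips of the elongated palette gave no transcripts of proximal muscle. Late time points and 0 DPA therefore also differ in the piece of limb taken. In such bulk tissue fewer cells of a type and less RNA per cell cannot be told apart.

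All values are log2 intensities, and arrays of 1 time point correlated at 0.962 to 0.994 over all probes, with medians per array from 5.70 to 5.90. At 0 DPA none of the 9 skeletal muscle, 4 macrophage or 6 epidermis markers lay under the 25th percentile of all probe means (4.18), and *COL2A1*, the collagen that defines cartilage, averaged 9.99. Of 14 measured cartilage matrix genes, 3 lay under that percentile at 0 DPA. Sample codes of unstated meaning split the replicates of every time point into 2 sets, 1 to 5 and 6 to 10. Samples of 3 to 18 DPA carry other codes than those of 0 DPA in both sets, and so do the later ones of replicates 6 to 10. Time and code cannot be told apart there, whereas the spans 2 against 0, 9 against 3, 18 against 10 and 28 against 20 DPA lie within codes. A further 2 arrays of 0.5 DPA, replicates 1 and 10, have a source name that gives another time, and were kept at 0.5 DPA as the rest of their labels state.

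Cartilage owes its stiffness to a fibrillar net of collagens II, IX and XI that is filled with aggrecan, a very large proteoglycan that binds hyaluronan and draws in water. Lubricin coats joint surfaces and is made by superficial cartilage and synovial cells. Osteoglycin belongs to the small leucine-rich proteoglycans, which bind collagen fibrils in connective tissue, whereas *CILP* encodes a matrix glycoprotein of the middle layer of articular cartilage and *ABI3BP* a matrix protein of connective tissues. When a salamander limb regenerates, the stump's matrix is first broken down, and cartilage is later laid down anew inside the blastema.

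The 5 genes moved in different directions. Transcripts of *PRG4* and of the first *ACAN* probe rose within the first day and those of *OGN*, *CILP* and *ABI3BP* fell over the first 10 to 12 days. *PRG4* stayed high to 28 DPA, *OGN* recovered in part, and *ABI3BP* stayed low. Over both sets of replicates together, the first *ACAN* probe was no longer called after 22 DPA. The second *ACAN* probe was never called higher, and was called lower at 10 time points. A probe was called when its limma adjusted p was under 0.05 and its mean differed by at least 0.58 on the log2 scale (1.5-fold). Of 114 tests of the 6 probes against 0 DPA, 35 were called higher and 64 lower, and 15 were not called. Over all probes, 17.9% of such tests were called, 9.63% higher and 8.28% lower.

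By probe, *PRG4* was called higher at all 19 later time points and the first *ACAN* probe at 16, from 0.5 to 22 DPA. *ABI3BP* was called lower at all 19, *OGN* at 18 (1 to 28 DPA), *CILP* at 17 (1.5 to 28 DPA) and the second *ACAN* probe at 10. Time point accounted for 87.3% of the variance of *ABI3BP*, 78.3% of the first *ACAN* probe, 73.4% of *PRG4*, 68.6% of *OGN*, 53.4% of *CILP* and 32.0% of the second *ACAN* probe, beside a median of 30.6% over all probes.

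**Figure D1:**
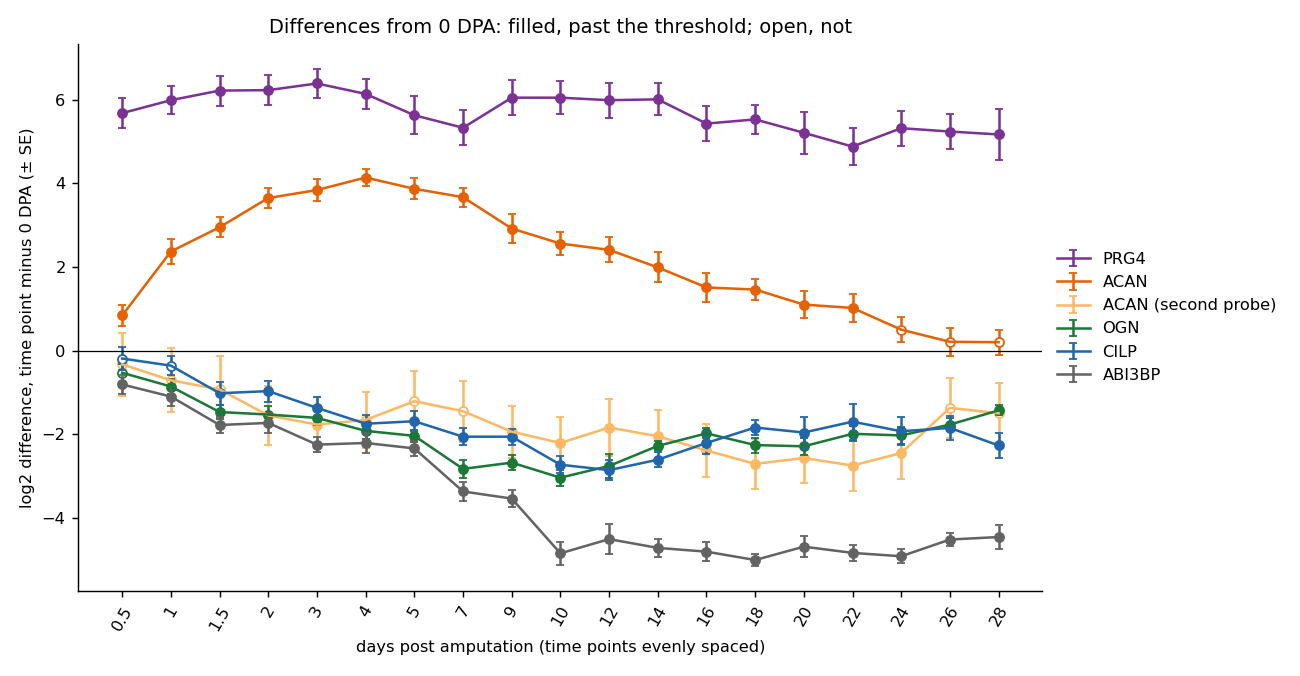
Mean log2 difference of each time point from 0 DPA (vertical axis, with bars for 1 SE) for the 6 probes at the 19 later time points (horizontal axis, evenly spaced), with filled points past the threshold and open points not. *PRG4* lies between 4.88 and 6.39 throughout, the first *ACAN* probe climbs to 4.14 at 4 DPA and comes back to 0.20 at 28 DPA, and *ABI3BP* reaches -5.01 at 18 DPA.

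Steps between neighbouring time points were called far less often. Of 114 such tests of the 6 probes, 3 were called higher and 1 lower, where 0.565% of all such tests were called. The rises were *PRG4* and *ACAN* at 0.5 against 0 DPA and *ACAN* at 1 against 0.5 DPA, and the fall was *ABI3BP* at 0.5 against 0 DPA. Tests of 0.5 against 0 DPA were also counted above, and 4.15% of all probes were called there. No other step of the 6 probes was called, although *ABI3BP* differed by -1.32 (SE 0.31, limma adjusted p = 0.13) at 10 against 9 DPA and by -1.03 (SE 0.25, limma adjusted p = 0.235) at 7 against 5 DPA. *CILP* differed by -0.67 at 10 against 9 DPA. The study lists *CILP* and *ABI3BP* as changed in that step. It used t tests at a fixed p of 0.01 with a 1.5-fold threshold, without adjustment over probes. Such t tests called both genes in that step here too. By viewing profiles, the study also placed *CILP* and *OGN* among chondrogenesis genes that shifted at about 9 to 10 DPA. *OGN* differed by -0.36 at 10 against 9 DPA (SE 0.24, limma adjusted p = 0.597). Over the 4 wider spans within sample codes, 5 of 24 tests were called higher and 6 lower, where 6.82% of all such tests were called. Among these, 2 against 0 DPA was also counted above, and 14.2% of all probes were called there. *PRG4* and the first *ACAN* probe were called higher in it, and *OGN*, *CILP* and *ABI3BP* lower.

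*PRG4* showed the largest difference from 0 DPA of the 6 probes. At 0.5 DPA its lowest, median and highest log2 intensities were 11.94, 12.40 and 13.27, against 5.39, 6.85 and 8.39 at 0 DPA. The groups did not overlap, and the highest array at 0 DPA lay more than 3 log2 units under the lowest at 0.5 DPA. The means were 12.49 ± 0.41 at 0.5 DPA and 6.81 ± 1.13 at 0 DPA (SD, n = 10 each), a difference of 5.68 (SE 0.36), or 51.3-fold (limma adjusted p = 1.27e-10). At 0.5 against 0 DPA, 4.15% of all probes were called.

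*PRG4* then stayed high. Its highest mean was 13.20 ± 0.36 at 3 DPA, where the arrays ran from 12.86 to 13.93 and the difference from 0 DPA was 6.39 (SE 0.35, 83.7-fold, limma adjusted p = 2.01e-11), in a comparison that called 18.6% of all probes. Its lowest mean after amputation, 11.70 ± 0.97 at 22 DPA, was still 29.5-fold above 0 DPA. No step between neighbouring time points after 0.5 DPA was called, nor was 9 against 3 (-0.33), 18 against 10 (-0.52) or 28 against 20 DPA (-0.04). Within single sets of replicates, 18 against 10 DPA was called lower in replicates 6 to 10 (-0.84, limma adjusted p = 0.0058) and 1 against 0.5 DPA higher in replicates 1 to 5 (0.63, limma adjusted p = 0.0263). Arrays spread more widely late on, with an SD of 1.76 at 28 DPA and 0.27 at 1 DPA.

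At 28 DPA, where 19% of all probes were called against 0 DPA, the lowest, median and highest arrays of *PRG4* stood at 8.10, 12.63 and 13.91, against the 5.39 to 8.39 of 0 DPA. Only 1 array, replicate 6, reached into the range of 0 DPA. The difference of the means was 5.17 (SE 0.62, 35.9-fold, limma adjusted p = 1.03e-06), and without that array it was 5.65 (SE 0.48, limma adjusted p = 1.62e-08).

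The genes whose 20 time-point means were most like those of *PRG4* were *SDC1* (r = 0.93), *ARF6* (0.905), *GAK* (0.893), *DYNC1LI2* (0.891) and *MAPK6* (0.873). *SDC1*, which encodes the cell-surface proteoglycan syndecan-1 of epithelia, was highest at 1 DPA (12.96) and lowest at 0 DPA (11.55). Epidermis markers also moved at 0.5 DPA: 2 of 6 were called higher, where 2.8% of all probes were, and their mean per array ran from 8.64 to 9.61 at 0.5 DPA and from 7.73 to 8.57 at 0 DPA. The part of epidermis in the *PRG4* result was not tested.

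**Figure D2:**
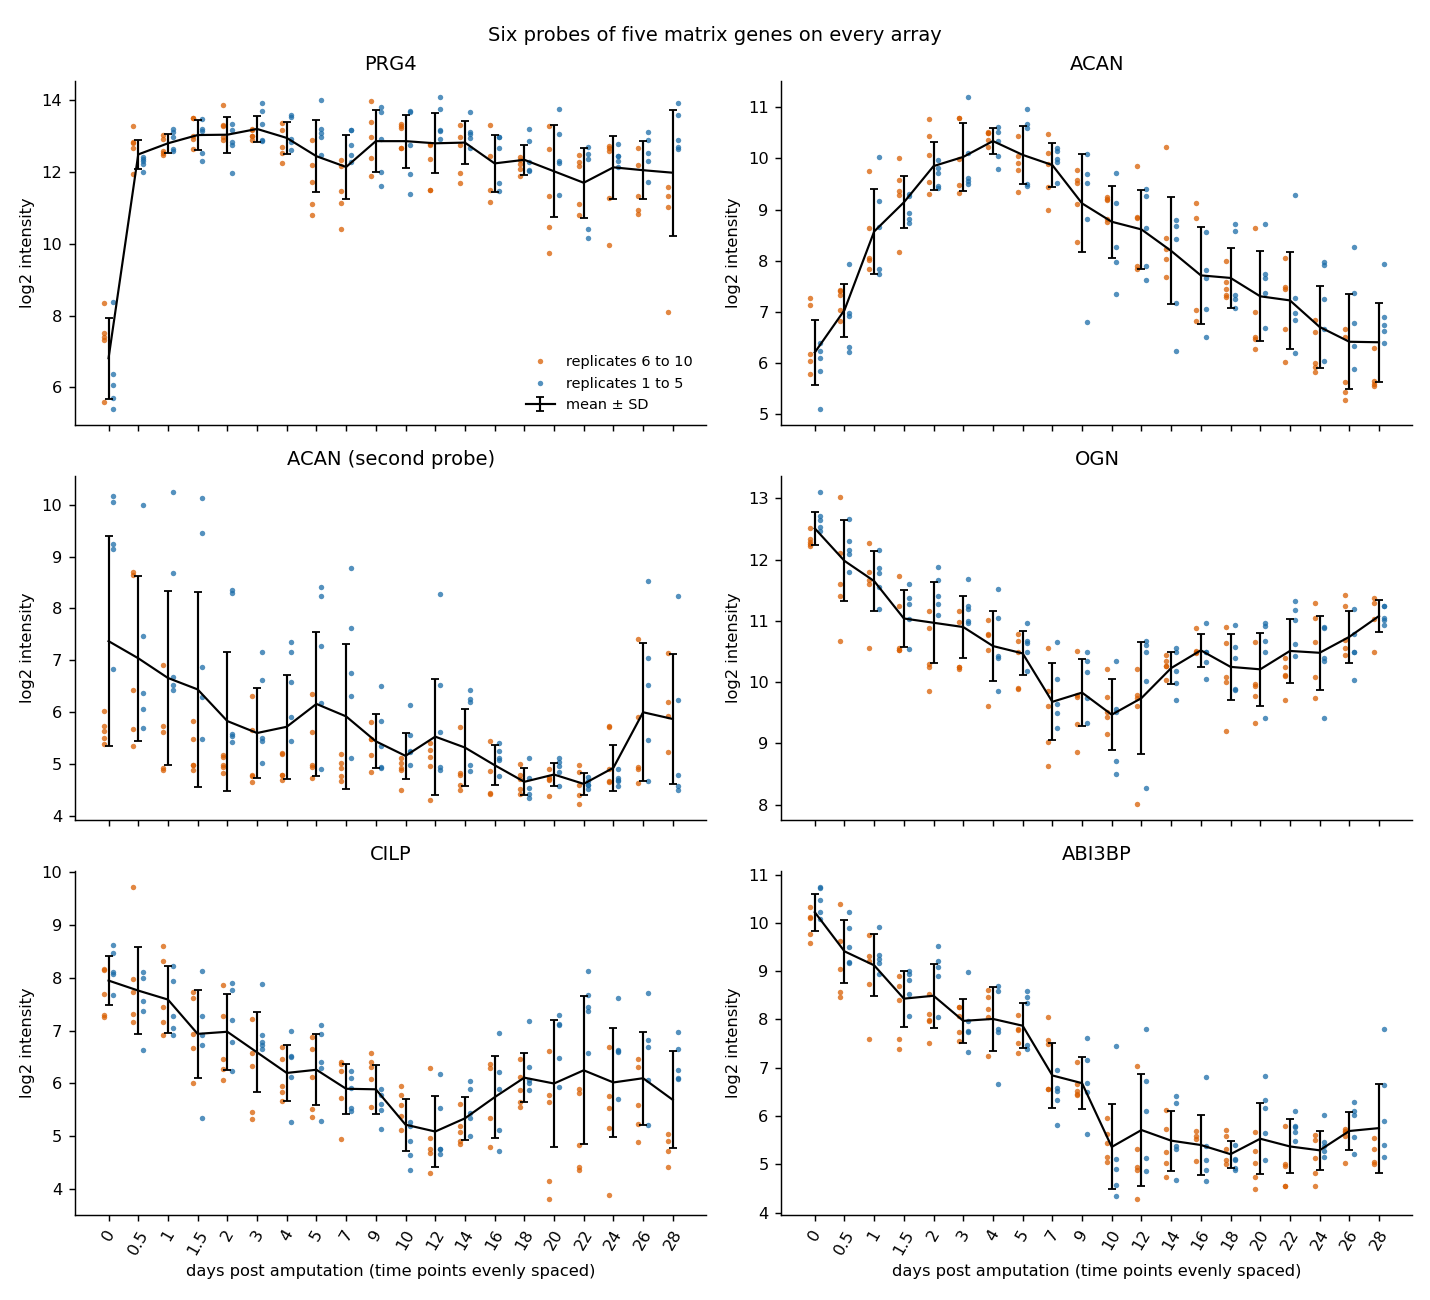
Log2 intensity (vertical axis, a separate scale in each panel) of the 6 probes on each of 198 arrays over 20 time points (horizontal axis, evenly spaced), with replicates 6 to 10 left and 1 to 5 right of each mean and SD. All *PRG4* arrays from 0.5 to 26 DPA lie above all arrays of 0 DPA, and the *OGN* and *CILP* means are lowest at 10 and 12 DPA.

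The first *ACAN* probe rose and then declined. At 4 DPA, its peak, the lowest, median and highest arrays were 9.80, 10.43 and 10.61, against 5.09, 6.13 and 7.27 at 0 DPA. Every array at 4 DPA was above every array at 0 DPA. The means were 10.34 ± 0.25 at 4 DPA and 6.20 ± 0.64 at 0 DPA (SD, n = 10 each), a difference of 4.14 (SE 0.20), or 17.7-fold (limma adjusted p = 9.39e-12). At 4 against 0 DPA, 17.9% of all probes were called.

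The climb took place in steps over the first days. The mean was 7.03 at 0.5 DPA, a difference of 0.84 from 0 DPA (SE 0.24, limma adjusted p = 0.0335) that was not called under 8 alternative settings. At 1 DPA the mean was 8.57 ± 0.83, higher than at 0.5 DPA by 1.53 (SE 0.29, limma adjusted p = 0.00248), a step at which 2.05% of all probes were called. That step was called within neither set alone (1.26, limma adjusted p = 0.207 in replicates 6 to 10, and 1.81, limma adjusted p = 0.05 in replicates 1 to 5). From 1 to 7 DPA no array overlapped those of 0 DPA.

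The decline was slow. The mean was 8.76 at 10 DPA, 7.66 at 18 DPA and 6.40 at 28 DPA. At 18 against 10 DPA, where 6.31% of all probes were called, it fell by 1.11 (SE 0.27, limma adjusted p = 0.00514), which was not called within replicates 1 to 5 alone (-0.70, limma adjusted p = 0.418). At 28 DPA the lowest, median and highest arrays were 5.54, 6.38 and 7.94, a range that overlapped almost all of that at 0 DPA. The difference was 0.20 (SE 0.30, limma adjusted p = 0.631). Within replicates 1 to 5 alone, which carry the same sample code at both times, it was called (0.99, limma adjusted p = 0.025). Within replicates 6 to 10, whose code changes, it was -0.71 (limma adjusted p = 0.116).

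The gene most like the first *ACAN* probe over the 20 time-point means was *BCAN* (r = 0.978), which encodes brevican, a relative of aggrecan that also binds hyaluronan. *BCAN* averaged 10.09 at 4 DPA and 4.74 at 0 DPA, a difference of 5.35 (SE 0.35, limma adjusted p = 2.34e-10). The next were *ITM2C* (0.976), *ERP29* (0.971), *MCOLN2* (0.969) and *AIF1* (0.969), a macrophage marker. The 4 listed macrophage markers (*CSF1R*, *CD68*, *MARCO* and *LYZ*) were all called higher at 4 DPA, where 8.56% of all probes were. Their mean per array ran from 8.77 to 10.18 at 4 DPA and from 7.01 to 8.06 at 0 DPA. None of the 4 lay under the 25th percentile of probe means at 4 DPA, and the part of macrophages in the *ACAN* result was not tested.

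The second *ACAN* probe ran another course. At 22 DPA its lowest, median and highest arrays were 4.23, 4.60 and 4.98, against 5.38, 6.43 and 10.17 at 0 DPA. The groups did not overlap, but the arrays of 0 DPA were spread over almost 5 log2 units. The means were 4.62 ± 0.21 at 22 DPA and 7.37 ± 2.02 at 0 DPA (SD, n = 10 each), a difference of -2.75 (SE 0.60, limma adjusted p = 7.15e-04). It was called lower at 3 DPA and from 9 to 24 DPA, and 20.3% of all probes were called at 22 DPA. At 4 DPA, the peak of the first probe, the second stood at 5.72 ± 1.00, a difference of -1.66 (SE 0.66, limma adjusted p = 0.0528). This fit leaves out the sets of replicates, which lay far apart at 0 DPA. With the set as a block the same difference was called (limma adjusted p = 0.00159), as it was within replicates 6 to 10 (-0.72, limma adjusted p = 0.00335) and within replicates 1 to 5 (-2.60, limma adjusted p = 0.00593). With the replicate number as a block it was also called at 2, 4, 5 and 7 against 0 DPA, with differences of -1.55, -1.66, -1.21 and -1.45 (limma adjusted p = 0.0361, 0.00117, 0.0135 and 0.0144).

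Over the 20 time-point means the 2 *ACAN* probes correlated at 0.00. The genes most like the second probe were *ANGPTL7* (0.948), *PLAC9* (0.939), *SPON2* (0.921), *FGL1* (0.917) and *MATN2* (0.911), which encodes a matrilin, an adaptor of the matrix. The probes' sequences were not used here, so which transcript each of them reports was not tested, and the gene name rests on the array's annotation.

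Neither probe followed the main cartilage collagen over time. *COL2A1* averaged 9.99 at 0 DPA, 6.32 at 10 DPA, its lowest, and 10.98 at 28 DPA. Its time-point means correlated with the first *ACAN* probe at -0.83 and with the second at 0.03, over 20 time points that share the same arrays. Over the 8 cartilage genes compared in this way (*COL2A1*, *COL9A1*, *COL9A2*, *COL9A3*, *HAPLN1*, *SOX9*, *MATN1* and *MATN4*), the correlations ran from -0.83 to -0.08 for the first probe, and from -0.40 (*MATN4*) to 0.72 (*MATN1*, with *HAPLN1* at 0.52) for the second. *HAPLN1* and *MATN1* were low, beside a 25th percentile of all probe means of 4.18. At 0 DPA *HAPLN1* averaged 3.75, and *MATN1* 3.79 in replicates 6 to 10 and 4.46 in replicates 1 to 5.

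**Figure D3:**
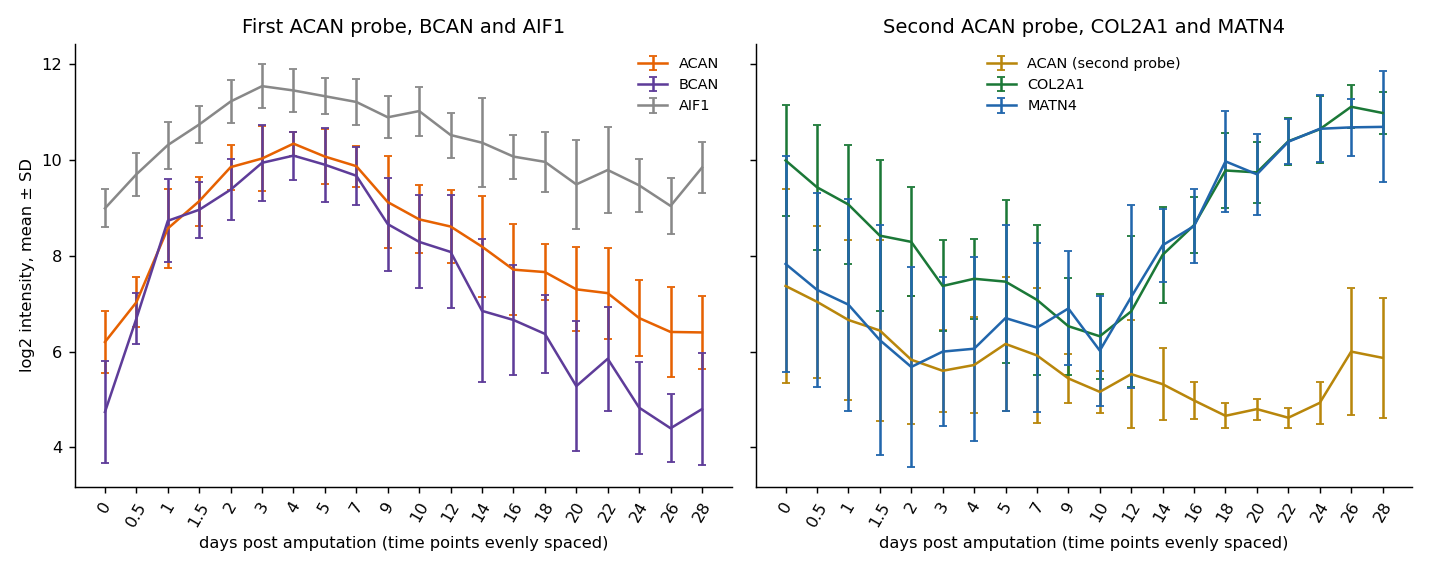
Log2 intensity (vertical axis, mean with bars for 1 SD) at 20 time points (horizontal axis, evenly spaced) of the first *ACAN* probe with *BCAN* and *AIF1*, and of the second *ACAN* probe with *COL2A1* and *MATN4*; only the shapes, not the levels, of different probes can be set against each other. The first probe peaks at 4 DPA with *BCAN*, whereas *COL2A1* is lowest at 10 DPA and the second *ACAN* probe at 22 DPA.

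*OGN* fell early and recovered in part. At 10 DPA, its lowest mean, the lowest, median and highest arrays were 8.50, 9.52 and 10.35, against 12.23, 12.50 and 13.11 at 0 DPA. The highest array at 10 DPA lay well below the lowest at 0 DPA. The means were 9.47 ± 0.58 at 10 DPA and 12.51 ± 0.27 at 0 DPA (SD, n = 10 each), a difference of -3.04 (SE 0.19), or 8.2-fold (limma adjusted p = 4.86e-11). At 10 against 0 DPA, 21.4% of all probes were called.

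The fall continued through the first days and the recovery spread over the last weeks. At 9 against 3 DPA, where 5.31% of all probes were called, *OGN* fell by 1.07 (SE 0.22, limma adjusted p = 0.00207), which was not called within replicates 6 to 10 alone (-0.92, limma adjusted p = 0.14). It was higher at 18 than at 10 DPA by 0.78 (SE 0.24, limma adjusted p = 0.0205) and at 28 than at 20 DPA by 0.86 (SE 0.20, limma adjusted p = 0.0278), in a span that called 1.43% of all probes. Neither rise was called within either set of replicates alone. With the replicate number as a block the last rise was 0.81 (limma adjusted p = 0.0679).

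At 28 DPA the arrays of *OGN* had a lowest value of 10.50, a median of 11.05 and a highest value of 11.37, all below those of 0 DPA. The difference was -1.43 (SE 0.12, 2.7-fold, limma adjusted p = 5.56e-09). The genes most like *OGN* were *COX4I2* (r = 0.975), *OAT* (0.958), *COL6A2* (0.957), *FGF13* (0.952) and *PARK7* (0.949). *COL6A2*, a chain of the collagen VI of connective tissue, had its lowest mean, 10.44, at 10 DPA, against 12.47 at 0 DPA.

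*CILP* reached its lowest mean at 12 DPA. There the lowest, median and highest arrays were 4.30, 4.76 and 6.29, against 7.26, 8.09 and 8.62 at 0 DPA. The groups did not overlap. The means were 5.09 ± 0.68 at 12 DPA and 7.95 ± 0.46 at 0 DPA (SD, n = 10 each), a difference of -2.86 (SE 0.24), or 7.28-fold (limma adjusted p = 7.25e-09). At 12 against 0 DPA, 20.8% of all probes were called. At 0.5 and 1 DPA *CILP* was not called, with differences of -0.19 and -0.36.

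*CILP* was higher at 18 than at 10 DPA by 0.89 (SE 0.20, limma adjusted p = 0.00282), a rise that was 0.37 within replicates 6 to 10 alone (limma adjusted p = 0.24). No later rise was called. At 28 DPA the mean was 5.69 ± 0.92 (n = 9), and the difference from 0 DPA was -2.27 (SE 0.31, 4.81-fold, limma adjusted p = 4.37e-06). The sets of replicates did not overlap at 22 DPA, where replicates 6 to 10 averaged 5.07 (4.36 to 5.90) and replicates 1 to 5 averaged 7.44 (6.58 to 8.13). The sets were not tested against each other at 22 DPA, so no share over all probes can be set beside this.

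The genes most like *CILP* were *C1QTNF1* (r = 0.962), *RPL5* (0.954), *RGMB* (0.954), *ABTB1* (0.951) and *LGI1* (0.951). Of these, *RPL5* encodes a ribosomal protein and moved little, with a lowest mean of 13.92 at 12 DPA, against 14.22 at 0 DPA. The time-point means of *CILP* and *OGN* correlated at 0.89, those of *CILP* and *ABI3BP* at 0.87 and those of *OGN* and *ABI3BP* at 0.75, over 20 time points on shared arrays.

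*ABI3BP* fell furthest of the 6 probes, and no later rise was called. At 18 DPA the lowest, median and highest arrays were 4.89, 5.10 and 5.71, against 9.58, 10.17 and 10.75 at 0 DPA. The groups were far apart. The means were 5.21 ± 0.28 at 18 DPA and 10.22 ± 0.38 at 0 DPA (SD, n = 10 each), a difference of -5.01 (SE 0.14), or 32.1-fold (limma adjusted p = 8.18e-18). At 18 against 0 DPA, 20.3% of all probes were called.

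The fall of *ABI3BP* began at once, with -0.81 at 0.5 DPA (SE 0.22, limma adjusted p = 0.0242), which neither set of replicates passed alone. The mean was 5.36 ± 0.88 at 10 DPA and 6.68 ± 0.54 at 9 DPA. That step of -1.32 (SE 0.31) was not called (limma adjusted p = 0.13), but without replicate 2 of 10 DPA, the highest array there at 7.46, it was -1.55 (limma adjusted p = 0.0125). Within replicates 6 to 10 alone, whose sample code changes at this step, it was called (-1.19, limma adjusted p = 0.00379), but not within replicates 1 to 5. The step was also called in 1 fit of all arrays (limma adjusted p = 0.00953) and with the sample code as a random block (-1.23, limma adjusted p = 0.0373). From 10 to 28 DPA the means stayed between 5.21 and 5.75. At 28 DPA the difference from 0 DPA was -4.46 (SE 0.29, 22-fold, limma adjusted p = 1.57e-10).

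The genes most like *ABI3BP* were *MBP* (r = 0.994), a myelin gene, *TPM1* (0.994), *TMEM182* (0.992), *SMYD1* (0.992) and *RTN2* (0.991), of which *TPM1* and *SMYD1* are known as muscle genes. Skeletal muscle markers fell over the same days. All 9 were called lower at 10 against 0 DPA, where 9.67% of all probes were, with a median difference of -6.60. Their mean per array had a lowest, median and highest value of 13.06, 13.31 and 13.51 at 0 DPA, 3.86, 6.40 and 9.80 at 10 DPA, and 3.81, 3.99 and 4.45 at 18 DPA. At 18 DPA 5 of the 9 lay under the 25th percentile of all probe means (4.18). Both measured Schwann cell markers, *MBP* among them, were also called lower at 10 DPA, with a median difference of -4.35. The part of these cell types in the *ABI3BP* result was not tested.

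Within single time points some probes differed between the sets of replicates. At 0 DPA the second *ACAN* probe averaged 5.66 (5.38 to 6.02) in replicates 6 to 10 and 9.09 (6.84 to 10.17) in replicates 1 to 5. The sets did not overlap, and the difference was -3.43 (SE 0.52, limma adjusted p = 0.0102), where 3.88% of all probes were called. The other 5 probes were not called between the sets at 0 DPA. Of 14 cartilage matrix genes, 6 were called lower in replicates 6 to 10 and 8 were not called: *MATN4* differed by -3.77, *COL9A1* by -3.56, *EPYC* by -3.16, *COL9A3* by -3.12, *COL9A2* by -3.10 and *UCMA* by -1.25, whereas *COL2A1* differed by -1.39 (limma adjusted p = 0.125). Whether the tissue or the sample code differed between the sets cannot be told apart.

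At 28 DPA other probes of the 5 genes were split, and 4.9% of all probes were called. *PRG4* averaged 10.51 (8.10 to 11.59) in replicates 6 to 10 and 13.15 (12.63 to 13.91) in replicates 1 to 5, a difference of -2.64 (SE 0.64, limma adjusted p = 0.0336). *CILP* differed by -1.64 (SE 0.20, limma adjusted p = 0.00246) and the first *ACAN* probe by -1.15 (SE 0.29, limma adjusted p = 0.0382). *OGN*, *ABI3BP* and the second *ACAN* probe were not called. The cartilage matrix genes called between the sets at 0 DPA were called again: *MATN4* (-2.04), *COL9A1* (-1.64), *COL9A2* (-1.62), *EPYC* (-1.23) and *COL9A3* (-0.87) were lower in replicates 6 to 10, whereas *UCMA* was higher there by 1.30, the opposite of 0 DPA.

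The change at 28 against 0 DPA also differed between the sets. As the difference between replicates 6 to 10 and 1 to 5 in that change, *PRG4* gave -3.48 (SE 0.94, limma adjusted p = 0.034), *CILP* -1.16 (limma adjusted p = 0.039), the first *ACAN* probe -1.70 (limma adjusted p = 0.0385) and the second 3.89 (SE 0.96, limma adjusted p = 0.0219). A probe passed this test by limma adjusted p under 0.05 alone, without the 1.5-fold threshold, and 6.94% of all probes did. From 0 to 28 DPA the sample code changes in replicates 6 to 10 but not in replicates 1 to 5. Time and code cannot be told apart in replicates 6 to 10. The second *ACAN* probe changed by 0.47 within replicates 6 to 10 and fell by 3.42 within replicates 1 to 5. *PRG4* rose in both sets, by 3.28 in replicates 6 to 10 and by 6.76 in replicates 1 to 5. In the other 5 comparisons tested this way, from 0 to 0.883% of all probes passed, and no probe of the 5 genes did.

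**Figure D4:**
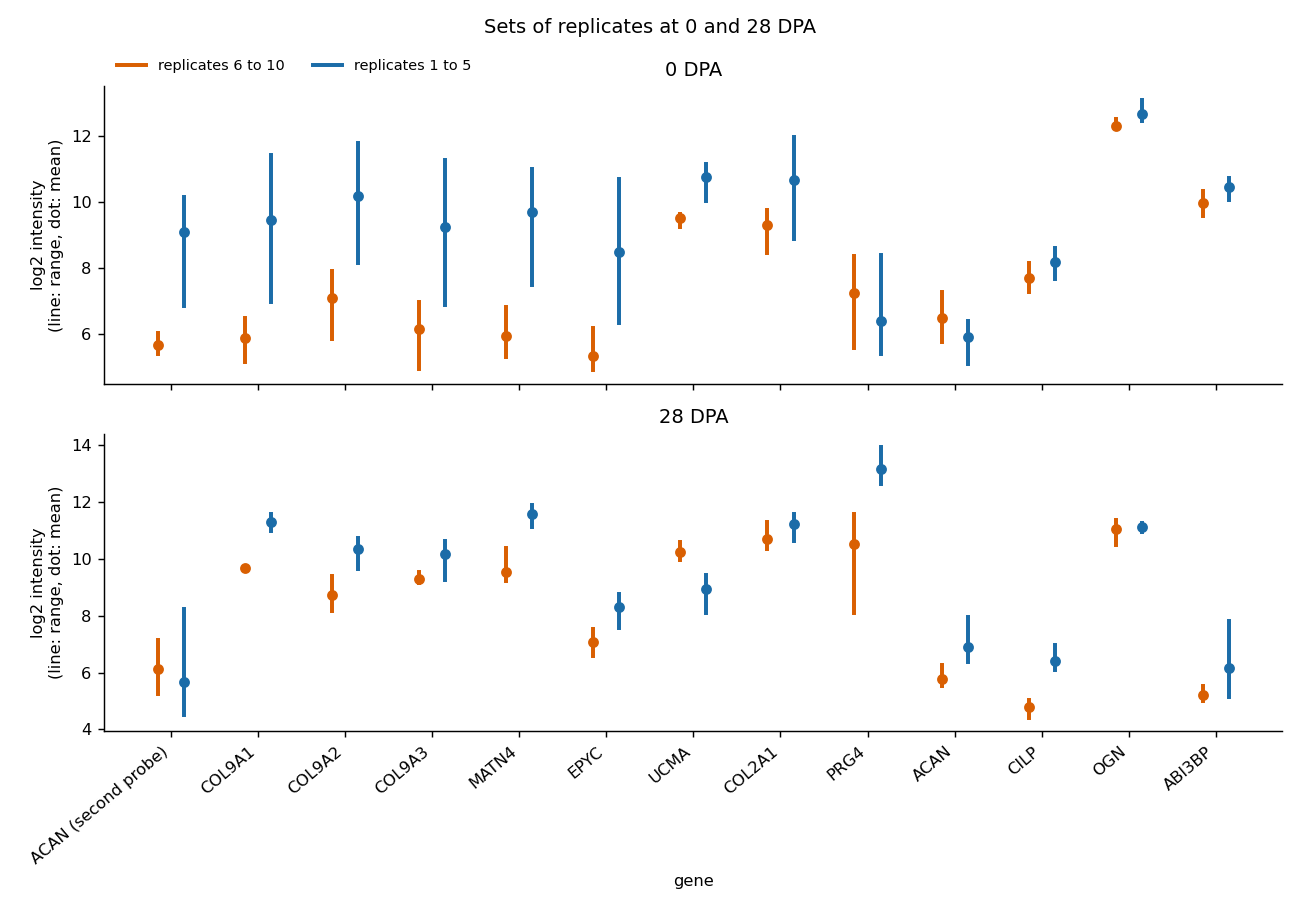
Log2 intensity (vertical axis, line for the range, dot for the mean) of the 6 probes and 7 cartilage matrix genes at 0 DPA and at 28 DPA, with replicates 6 to 10 left of replicates 1 to 5 for each gene (horizontal axis). At 0 DPA the sets' ranges do not overlap for the second *ACAN* probe, *COL9A1*, *COL9A2*, *MATN4*, *EPYC* and *UCMA*, and at 28 DPA they do not for *PRG4*, the first *ACAN* probe, *CILP*, *COL9A1*, *COL9A2*, *MATN4*, *EPYC* and *UCMA*.

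The same arrays gave a course for other cartilage genes. Of 20 listed genes of cartilage matrix, 14 were measured. Under the 25th percentile of all probe means lay 3 of the 14 at 0, 10, 18, 20 and 28 DPA, and 4 at 4 DPA. At 4 against 0 DPA none of the 14 was called higher and 6 were called lower, where 9.31% of all probes were lower. The median difference of the 14 was -1.44, beside 0.01 over all probes. At 10 against 0 DPA 8 were lower and none higher, where 9.67% of all probes were lower and 11.7% higher, with a median of -1.85. Both comparisons cross sample codes, and at 0 DPA 6 of the 14 were called lower in replicates 6 to 10 than in replicates 1 to 5. At 18 against 10 DPA 7 were called higher and none lower, where 2.56% of all probes were higher, among them *MATN4* (3.94, SE 0.46), *COL2A1* (3.47, SE 0.35) and *COL9A1* (2.38, SE 0.61). At 28 against 20 DPA 5 were higher and none lower, where 0.449% of all probes were higher. At 18 against 10 and 28 against 20 DPA the first *ACAN* probe differed by -1.11 and -0.90, the second by -0.50 and 1.07, and *PRG4* by -0.52 and -0.04. Of these only the -1.11 was called. *OGN* was called higher in both spans, by 0.78 and 0.86, and *CILP* at 18 against 10 DPA alone, by 0.89. *ABI3BP* was called in neither.

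Of 10 measured small leucine-rich proteoglycans other than *OGN*, 6 were called lower at 4 against 0 DPA and 5 at 10 against 0 DPA, where 9.31% and 9.67% of all probes were lower, with *ASPN* (-3.32), *EPYC* (-2.52), *LUM* (-1.62) and *DCN* (-1.55) showing the largest falls at 10 DPA. *KERA*, keratocan, was called higher there by 2.16. At 28 against 0 DPA 3 were lower and 2 higher, where 8.31% of all probes were lower and 10.7% higher. In RefSeq's gene table for the axolotl assembly UKY_AmexF1_1, *OGN* lies beside *ASPN*, *OMD* and *ECM2*, and *ACAN* beside *HAPLN3* and *MFGE8*.

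Of 7 measured genes of hyaluronan and its binding proteoglycans, 2 were called higher and 1 lower at both 4 and 10 against 0 DPA. Over all probes 8.56% were higher and 9.31% lower at 4 DPA, and 11.7% higher and 9.67% lower at 10 DPA, and 1 lower gene of 7 is near that share. Those called higher were *BCAN* and *HAS2*, a hyaluronan synthase, with 0.72 (SE 0.16) at 4 DPA. The gene called lower was *HAPLN3*, a link protein that ties such proteoglycans to hyaluronan, with -1.25 (SE 0.21) at 4 DPA. *HAPLN1*, the link protein of cartilage, and *SOX9*, the regulator of cartilage fate, averaged 3.64 and 3.90 at 4 DPA, under the 25th percentile of probe means, and were not called in any of these comparisons. Among listed proteases and inhibitors that act on aggrecan, 3 had a probe with their symbol alone: *ADAMTS1*, *ADAMTS4* and *TIMP3*. None of the 3 was called at 4, 10 or 28 against 0 DPA. *ADAMTS1* was called higher at 0.5 against 0 DPA, with means of 5.44 at 0.5 DPA and 4.04 at 0 DPA. *MMP3* and *MMP13*, also listed, had no such probe and were not counted. The study lists probes of both as changed between 0 and 1 DPA.

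Deviations of single arrays from the mean of their time point and set were then compared, over 198 arrays and 27 pairs of measures, with permutation p-values (100000 permutations within time point and set, two-sided) adjusted over the 27. The second *ACAN* probe deviated with *COL2A1* (Pearson's r = 0.74, Spearman's rho = 0.68, raw permutation p = 1e-05 and adjusted p = 4.5e-05 for both, the smallest these permutations give). The relation was above 0 at 19 of 20 time points, was 0.74 without the 2 farthest arrays and ran from 0.22 to 0.85 within the 6 sample codes. The first *ACAN* probe gave 0.10 with *COL2A1* (rho = 0.09, permutation adjusted p = 0.18 and 0.26), and 0.10 with the second probe (rho = 0.13, permutation adjusted p = 0.18 and 0.091).

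*ABI3BP* deviated with the mean of the muscle markers (r = 0.62, rho = 0.59, permutation adjusted p = 4.5e-05 for both). The relation was above 0 at 18 of 20 time points, was 0.55 without the 2 farthest arrays and ran from 0.06 to 0.88 within the codes. The other probes also passed the threshold with the muscle mean, less strongly. Pearson's r was 0.33 for the first *ACAN* probe, 0.30 for *CILP*, 0.27 for *OGN*, 0.25 for the second *ACAN* probe and -0.19 for *PRG4*. Their permutation adjusted p ran from 6.7e-05 (*CILP*) to 0.028 (*PRG4*). Within the codes only *CILP* kept 1 sign (0.15 to 0.75). The first *ACAN* probe ran from -0.23 to 0.58, *OGN* from -0.13 to 0.87, the second *ACAN* probe from -0.14 to 0.55 and *PRG4* from -0.44 to 0.04. The muscle mean per array ran from 3.86 to 9.80 at 10 DPA, but only from 3.91 to 4.07 at 22 DPA. *OGN* deviated with *ABI3BP* (r = 0.51, rho = 0.47), *CILP* (0.45, 0.46) and *COL2A1* (0.39, 0.43), and *CILP* with *COL2A1* (0.41, 0.39), each with a raw permutation p of 1e-05 or 2e-05 and an adjusted p of 4.5e-05 or 6.7e-05. These 4 relations were 0.38 to 0.47 without the 2 farthest arrays, and within the codes they ran from 0.08 to 0.85. *PRG4* ran against *OGN* (-0.27, -0.31, permutation adjusted p = 0.00058 and 0.00035) and against *COL2A1* (-0.25, -0.27, permutation adjusted p = 0.00051 and 0.00071), at -0.26 and -0.25 without the 2 farthest arrays and from -0.53 to -0.05 within the codes. All the pairs were measured on the same tissue samples.

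**Figure D5:**
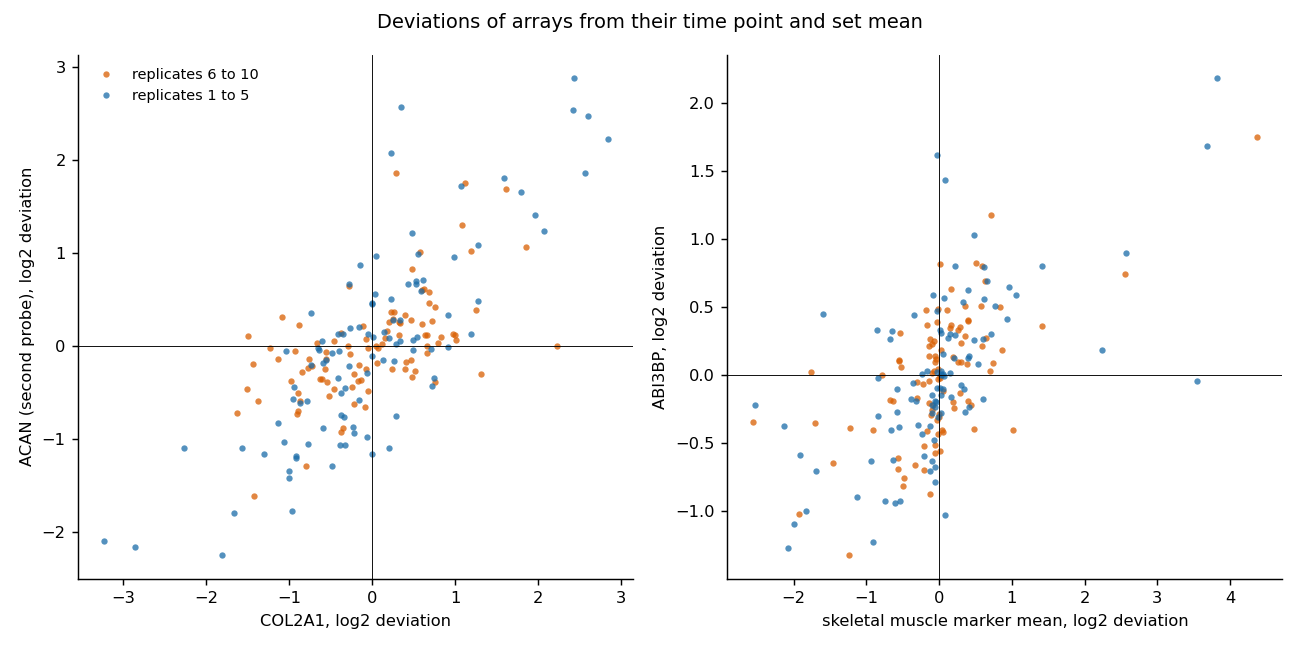
Deviations of 198 arrays from the mean of their time point and set, in log2 units on both axes, for the second *ACAN* probe against *COL2A1* and for *ABI3BP* against the mean of 9 skeletal muscle markers, coloured by set. Both clouds slope upward, with r = 0.74 and r = 0.62.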

How the data were processed

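RNA of 198 individual tissue samples had been hybridised to Amby002 arrays, a custom Affymetrix GeneChip. The authors deposited log2 intensities, made by RMA (background correction, quantile normalization and probe set summary) in Affymetrix Expression Console, whose version is not given in the sources used here. RMA forces arrays to 1 distribution, so values are relative to the rest of an array. The 45 control probes were left out, and 20035 probes were tested. Groups were the time points of the labels. The methods describe 10 biological replicates per time point with RNA of each sample extracted on its own, but not which animal gave which sample, so p-values measure the spread between these samples. No depth exists for arrays: their number limits the precision.

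Each comparison used the arrays of its 2 time points in limma 3.58.1 (R 4.3.3), with Benjamini-Hochberg adjustment over all probes. Time point means, relations and figures used Python 3.11.15, numpy 2.4.6, scipy 1.17.1, pandas 2.3.3 and matplotlib 3.10.9. The fit was tested on simulated data, but no outcome of that test is given here. Replicate numbers 1 to 10 recur at each time point, but in 0 of 40 comparisons did every pair of equal numbers deviate together (r from -0.39 to 0.51), so they were not taken as pairs.

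All 6 probes were named, with the 5 genes most like each over the 20 time-point means and up to 4 called genes of each related list in a comparison described. Members and lists were chosen with earlier results of these data known. Relations of the second *ACAN* probe, comparisons of the sets within 0 and 28 DPA, and fits without single arrays were added after seeing the data. Genes of the sets' comparison and of levels near background were named after their values were seen. Gene names come from the platform annotation. A listed gene counted as measured when a probe carried its symbol or alias alone.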

Additional observations from a re-analysis of the deposited data

Results flagged for a closer look

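In 7 of 120 groups of arrays (6 probes at 20 time points) the highest or lowest array stood apart from the others by Dixon's criterion, and chance gives about 1 in 20 such groups. *ABI3BP* gave 3 of them: replicate 10 of 1 DPA was low at 7.60, replicate 2 of 10 DPA high at 7.46 and replicate 5 of 16 DPA high at 6.80. *PRG4* was low in replicate 6 of 28 DPA at 8.10, with the next array at 11.03. *ACAN*, the first probe, was low in replicate 2 of 9 DPA at 6.79, and *OGN* was low in replicate 9 of 28 DPA at 10.50. *CILP* was high in replicate 10 of 0.5 DPA at 9.73, 1 of the 2 arrays whose source name gives another time. Without that array the difference of *CILP* at 0.5 against 0 DPA was -0.41 (limma adjusted p = 0.235).

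The change over time differed between the sets of replicates in 4 of 36 tests of this kind, all at 28 against 0 DPA. By limma adjusted p under 0.05 alone, 6.94% of all probes passed in that comparison and 0.883% at 10 against 9 DPA. In the spans within codes 0 to 0.155% passed. As replicates 6 to 10 minus 1 to 5, the difference was -3.48 for *PRG4*, -1.16 for *CILP*, -1.70 for the first *ACAN* probe and 3.89 for the second. The sets carry different sample codes, and set and code cannot be told apart. At 28 against 0 and at 10 against 9 DPA the code changes in replicates 6 to 10 alone. The part of that change of code in these differences was not tested.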

How the results depend on the processing

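Of 1285 alternative values of single probes in 15 comparisons, 1198 stayed on their side of the threshold in the same direction, 41 were no longer past it, 30 newly passed it and 16 changed sign. None of the 16 was called in either fit. Within replicates 6 to 10 alone the values that changed sign were *ACAN* at 28 against 0 DPA (-0.71, against 0.20), the second *ACAN* probe at 0.5 against 0 (1.30, against -0.33), 28 against 0 (0.47, against -1.50) and 9 against 3 DPA (0.12, against -0.16), *CILP* at 0.5 against 0 (0.28, against -0.19) and 9 against 3 DPA (0.01, against -0.70), and *PRG4* at 1 against 0.5 (-0.01, against 0.31) and 10 against 9 DPA (0.11, against -0.00). Within replicates 1 to 5 alone they were the second *ACAN* probe at 1 against 0.5 DPA (0.59, against -0.38) and *PRG4* at 28 against 20 DPA (0.60, against -0.04). *PRG4* at 28 against 20 DPA was also 0.03 with the replicate block and 0.44 without replicate 6 of 28 DPA, and at 10 against 9 DPA 0.01 with arrays centred on the median. *CILP* at 1 against 0.5 DPA (-0.17) was 0.02 without the 2 arrays of conflicting labels and 0.04 without replicate 10 of 0.5 DPA, and *ABI3BP* at 18 against 10 DPA (-0.15) was 0.08 without replicate 2 of 10 DPA. Of the relations, *PRG4* with *ACAN* (-0.02) was 0.12 and *PRG4* with *CILP* (-0.10) was 0.10 over residuals from the time point alone, neither past the threshold. The 3 rises between neighbouring time points were 1 within replicates 6 to 10 alone. The single fall was 0 with a 2-fold threshold and within replicates 1 to 5 alone, 2 with 1 fit of all arrays, the sample code as a random block, array weights or without the 2 arrays of conflicting labels, 3 without the arrays far from their group (added after seeing the data: *ABI3BP* at 1.5 against 1 DPA without replicate 10 of 1 DPA, -0.85, and at 10 against 9 DPA without replicate 2 of 10 DPA, -1.55), and 5 with the methods' t test at p of at most 0.01. Over the wider spans the 5 rises were 2 with a 2-fold threshold and within replicates 6 to 10 alone, and 3 within replicates 1 to 5 alone. With all probes of a gene, 2.6% of the related lists' probes were lower at 28 against 20 DPA, against 1.7%. The cause was not tested in any of these; each set of replicates alone has fewer samples.

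With the replicate number as a block, 35 tests against 0 DPA were higher and 68 lower, 3 and 1 between neighbours, and 4 and 7 over the wider spans. The block changed the call of *OGN* at 28 against 20 DPA and of the second *ACAN* probe at 2, 4, 5 and 7 against 0 DPA, and no other call of the 6 probes in these comparisons. The second *ACAN* probe, whose arrays of 0 DPA spread most, and *ACAN* at 0.5 against 0 DPA depended most on the setting.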

Other observations

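Other matrix genes of the limb were measured on the same arrays. Of 13 measured genes of tendon and fibrous connective tissue, 8 were called lower and 2 higher at 10 against 0 DPA, and 7 lower and 1 higher at 28 against 0 DPA. Over all probes 9.67% were lower and 11.7% higher at 10 DPA, and 8.31% lower and 10.7% higher at 28 DPA, so the counts of higher genes are near the share over all probes. At 28 DPA *CLEC3B*, tetranectin, differed by -5.01 (SE 0.27), *TNXB*, a tenascin, by -4.94 (SE 0.13), *FBN1*, fibrillin, by -4.15 (SE 0.12) and *DPT*, dermatopontin, by -3.60 (SE 0.31), whereas *FBLN1*, fibulin, was higher by 3.15 (SE 0.26). Of 4 measured bone genes 1 was called lower at 28 against 0 DPA, and none higher: *BGLAP*, osteocalcin, averaged 4.35 at 28 DPA and 12.02 at 0 DPA, a difference of -7.67 (SE 0.42, limma adjusted p = 7.21e-12). Of 9 measured regulators of cartilage formation, 2 were called higher and 3 lower at both 4 and 10 against 0 DPA, where 8.56% and 11.7% of all probes were higher and 9.31% and 9.67% lower. *PTHLH*, a secreted regulator of growth cartilage that skin also makes, was called higher at 0.5 against 0 DPA by 3.20 (SE 0.18). *CDH2*, the cadherin of condensing mesenchyme, differed by -2.35 (SE 0.22) at 10 against 0 DPA and by 2.40 (SE 0.22) at 18 against 10 DPA.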
